A study of Mus musculus with 6 samples.

Results

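The BCL-2 family decides whether a cell keeps its mitochondria intact or dies by apoptosis. The 10 genes described here are Bcl2, Bcl2l1, Mcl1, Bcl2a1b, Bax, Bak1, Bcl2l11, Bbc3, Pmaip1 and Bid, taken by gene symbol from a table of 54532 genes, and all 10 were among the 16075 genes that passed the filter on low counts. The RNA came from splenic CD4+ T cells of C57BL/6 mice with experimental autoimmune encephalomyelitis (EAE), in which an induced immune attack damages brain and spinal cord, sampled in its acute phase. The 3 Ogt-KD mice had the genotype Ogtfl/wt CD4-Cre, so 1 Ogt allele was floxed and the other intact, and a Cre transgene under Cd4 control works in T-lineage cells. The 3 controls were wild type by their labels, which name neither Cre nor a floxed allele for them, and all 6 mice had EAE. An effect of the Cre or of linked DNA cannot be told apart from one of Ogt, which encodes the enzyme that attaches O-GlcNAc to nuclear and cytoplasmic proteins.

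In this pathway the survival proteins BCL-2, BCL-XL (from Bcl2l1), MCL-1 and A1 (from the Bcl2a1 genes) hold the effectors BAX and BAK in check. The BH3-only proteins BIM (Bcl2l11), PUMA (Bbc3), NOXA (Pmaip1) and BID bind the survival proteins or activate the effectors, and BAX and BAK then open the outer mitochondrial membrane so that cytochrome c is released. In T cells, MCL-1 and BCL-2 keep resting cells alive under interleukin 7, BCL-XL and A1 are induced on activation, and BIM removes self-reactive thymocytes and clears expanded T cells when a response ends.

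In the text, values per library are given in the order of replicates 1, 2 and 3. The series names 3 mice a group without saying outright that each library is 1 mouse, so n counts libraries. Total counts ran from 18127031 to 25683453 per library. Ogt, in TMM-scaled CPM (counts relative to library size), averaged 597 ± 32.8 in control mice against 573 ± 104 in Ogt-KD mice (SD, n = 3 each). By library it stood at 599, 628 and 562 CPM in control and 662, 599 and 459 CPM in Ogt-KD mice. Ogt-KD replicate 1 lay above every control, replicate 2 among them and replicate 3 below every control. The log2 fold change of Ogt was thus -0.06 (SE 0.15), from counts over the whole gene, which do not measure loss of a floxed exon. Cd4 lay between 739 and 903 CPM and Cd3e between 241 and 329 CPM in all libraries. Other spleen cells also left reads. Csf1r, a macrophage receptor gene, lay between 124 and 655 CPM, and Ighm, of B cells, between 438 and 895 CPM. Along principal component 1 (44.8% of variance) the libraries numbered 3 had the highest scores, 40.7 and 38.4, and Ogt-KD replicates 1 and 2 the lowest, -35.7 and -42.4. Component 2 (20.2%) separated the groups, with controls at 25.9, 24.5 and 8.98 and Ogt-KD libraries at -12.8, -12.2 and -34.4.

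Mcl1 was by far the most abundant member per unit of gene length. The deposited FPKM divides the count by gene length and by 1 factor for each library. In control libraries it averaged 215 ± 18.4 for Mcl1 (SD, n = 3). Next came Bax at 67.4 ± 2.91 FPKM and Bbc3 at 44.4 ± 15.5 FPKM. Each of these 3 genes lay clear of its neighbours in the order in all 3 control libraries. Bak1 at 25.2 ± 1.28 FPKM, Bcl2 at 24.1 ± 4.96, Pmaip1 at 16.6 ± 6.15, Bcl2l11 at 12.2 ± 2.22 and Bcl2a1b at 11.9 ± 2.64 followed, and neighbours among these 5 overlapped. Bid at 6.30 ± 0.448 FPKM and Bcl2l1 at 5.20 ± 0.345 FPKM were lowest, and the control values of both lay apart from each other and from the rest.

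**Figure D1:**
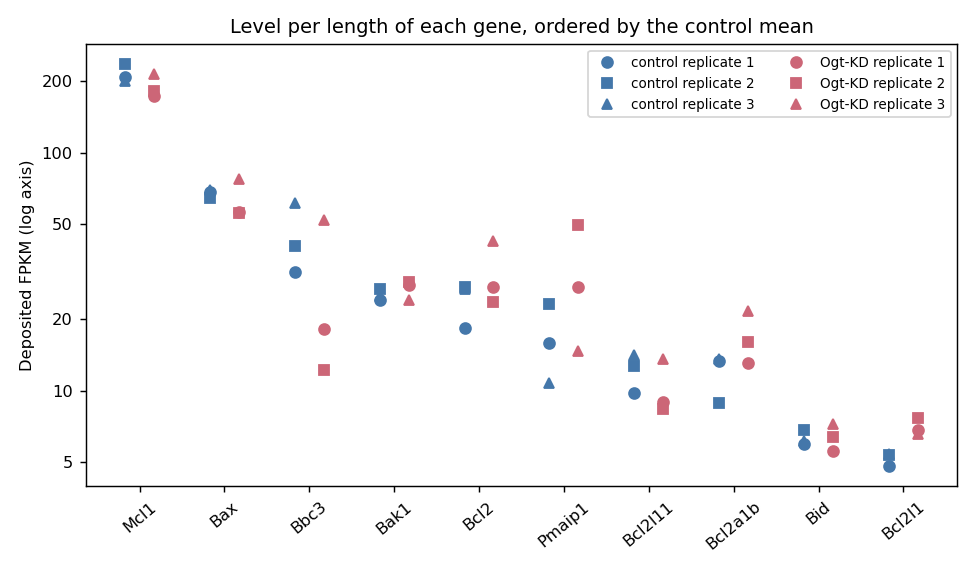
Deposited FPKM (log axis) of the 10 genes in each library, ordered by the control mean, with blue for control, red for Ogt-KD and a marker shape for each replicate number. Mcl1 lies near 215 in control libraries and Bcl2l1 near 5.20, and Bbc3 and Pmaip1 spread most widely.

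In the Ogt-KD libraries Mcl1 and Bax stayed on top, and the order below them differed, with Bid lowest at 6.40 ± 0.855 FPKM and Bcl2l1 next at 7.03 ± 0.598. Mcl1 averaged 189.8 ± 21.5 FPKM and Bax 63.3 ± 12.6 FPKM, while Bbc3 averaged 27.6 ± 21.7 FPKM and Pmaip1 30.5 ± 17.6 FPKM. The 4 survival genes together held 56.8% to 61.5% of the summed FPKM of all 10 members in control libraries and 58.7% to 60.6% in Ogt-KD libraries. The 2 effectors held 20.1% to 23.1% in control and 21.5% to 23.0% in Ogt-KD libraries, and the 4 BH3-only genes 15.7% to 21.3% and 16.4% to 19.6%. The shares of the 3 classes overlapped between the groups.

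Between the groups, 0 of the 10 members passed an adjusted p of 0.05 in edgeR, where 0.00622% of all genes tested did (1 of 16075). DESeq2 and limma-voom also called 0 members, with 0.784% of genes called in DESeq2. At an unadjusted p under 0.05 edgeR had 1 member, Bcl2l1, against 7.52% of all genes tested (5.04% higher and 2.48% lower). Bcl2l1 was also the 1 member whose groups did not overlap, against 13.3% of genes tested (7.43% higher and 5.88% lower). Both shares are near those of all genes and are no result about the family. The members had a median log2 fold change of 0.06, with 6 of 10 above 0, beside a median of -0.0048 and 49% above 0 over all genes tested. In the authors' deposited table the smallest adjusted p among the members was 0.201, for Bcl2l1, and the next was 0.549, for Pmaip1.

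**Figure D2:**
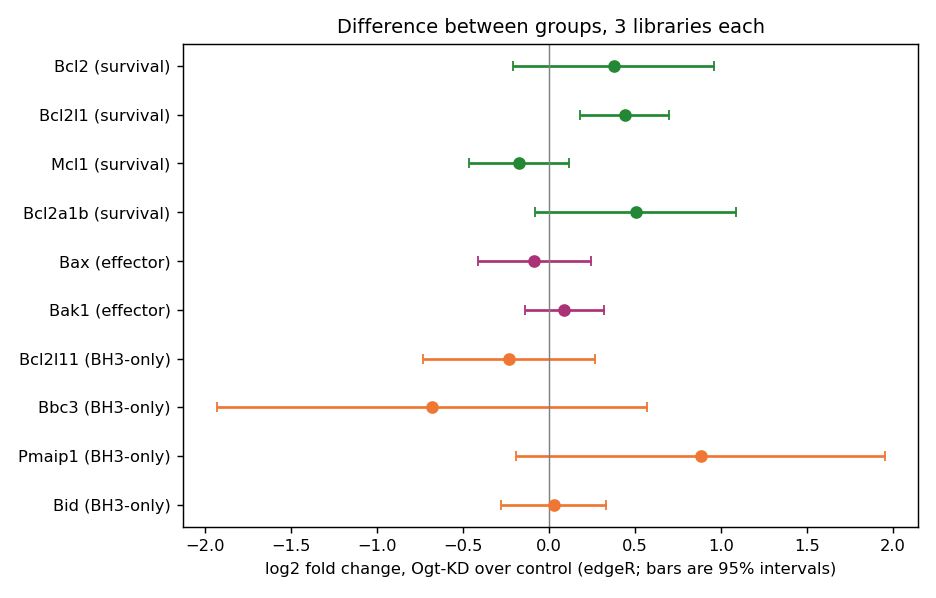
Change between groups (log2, Ogt-KD over control) for each member with its 95% interval (edgeR, 3 libraries a group), coloured by class. The interval of Bcl2l1, 0.18 to 0.70, is the one that leaves out 0, before any adjustment for the number of genes tested.

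Bcl2l1 (chr2:152780668-152831728, GRCm38, minus strand), which encodes BCL-XL, was higher in every Ogt-KD library than in any control library. It stood at 22.3, 24.6 and 25.0 CPM in control mice, against 31.8, 35.7 and 30.1 CPM in Ogt-KD mice. The Ogt-KD values lay above all control values. The means were 24.0 ± 1.42 and 32.5 ± 2.89 CPM (SD, n = 3 each). This gave a log2 fold change of 0.44 (95% interval 0.18 to 0.70, SE 0.11, edgeR unadjusted p = 0.00497, adjusted p = 0.526). Erythroid precursors also express Bcl2l1. The 10 erythroid markers summed to 94.5 to 149.7 CPM in control and 119 to 353 CPM in Ogt-KD libraries, with 9 of 10 above 0 in log2 fold change and none at 0 counts over the series. Their highest sum was in Ogt-KD replicate 3. The 20 cell cycle genes, of which 20 lay above 0, summed to 1069 to 1424 CPM in control and 1556 to 2033 CPM in Ogt-KD libraries, and the part of either list in the Bcl2l1 difference was not tested. In bulk RNA of this kind, fewer cells of a type and less RNA per cell cannot be told apart.

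Bcl2 (chr1:106538178-106714274, minus strand), the founding survival gene of the family, was highest in a single Ogt-KD library. It stood at 171, 248 and 246 CPM in control mice, against 254, 218 and 392 CPM in Ogt-KD mice. The groups overlapped, with Ogt-KD replicate 3 alone well above the rest and control replicate 1 below. Its log2 fold change was 0.38 (SE 0.25, edgeR adjusted p = 0.820), 0.09 with Ogt-KD replicate 3 left out, 0.22 with control replicate 1 left out and 0.17 without both replicate 3 libraries. Its exons share 6.09% of their bases with D630008O14Rik on the other strand.

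**Figure D3:**
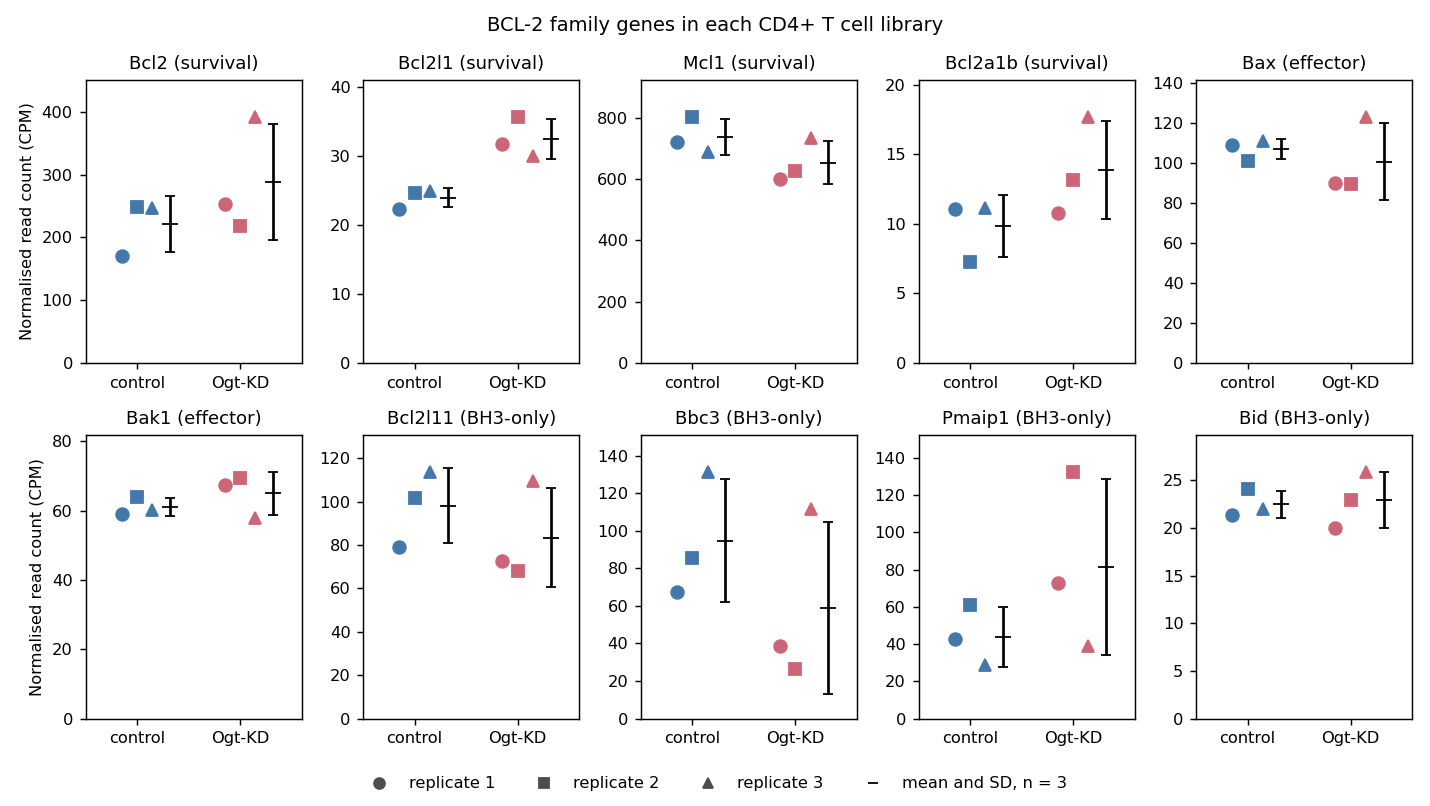
Normalised read count (CPM, linear axes from 0) of each member in each library, with a marker shape for each replicate number and the mean and SD beside them (n = 3). The Bcl2l1 values of the groups do not overlap, from 22.3 to 25.0 in control and from 30.1 to 35.7 in Ogt-KD libraries, and those of the other 9 members do.

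Mcl1 (chr3:95658788-95663176, plus strand), whose short-lived protein T cells need at every stage, lay lower in part of the Ogt-KD libraries. Control mice held 721, 804 and 689.5 CPM and Ogt-KD mice 601, 627 and 734 CPM. Ogt-KD replicates 1 and 2 lay below all controls, and Ogt-KD replicate 3 lay among them. Its log2 fold change was -0.17 (SE 0.12, edgeR adjusted p = 0.844) and ran from -0.27 without Ogt-KD replicate 3 to -0.11 without control replicate 2.

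Bcl2a1b (chr9:89199209-89207827, plus strand) is 1 of several mouse copies of the gene for A1, a survival protein that NF-kB induces in activated lymphocytes and myeloid cells. The reference transcripts of Bcl2a1a and Bcl2a1d, on the same chromosome, are shown beside it because most of their sequence is the same. The first 120 bases of each coding sequence (GENCODE M21) follow, with capitals at each position where the 3 copies are not all alike.
Bcl2a1b: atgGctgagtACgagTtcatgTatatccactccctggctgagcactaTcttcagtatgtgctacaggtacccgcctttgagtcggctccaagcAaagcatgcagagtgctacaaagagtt
Bcl2a1a: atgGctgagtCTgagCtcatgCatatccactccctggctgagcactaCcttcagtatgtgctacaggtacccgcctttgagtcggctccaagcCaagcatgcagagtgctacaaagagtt
Bcl2a1d: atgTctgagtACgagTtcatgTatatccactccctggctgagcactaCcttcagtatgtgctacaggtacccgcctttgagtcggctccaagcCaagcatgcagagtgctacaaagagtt
Over 516 coding bases, Bcl2a1b differs from Bcl2a1d at 6 positions and from Bcl2a1a at 11, identities of 98.8% and 97.9%. The stretch holds 7 of the 12 positions at which the 3 coding sequences are not all alike, and the longest identical run between Bcl2a1b and Bcl2a1d is 217 bases. How reads that match several copies were assigned is not given in the sources used here, and 49.1% of the exon bases of Bcl2a1b are shared with Gm29094 on the same strand.

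Bcl2a1b stood at 11.1, 7.25 and 11.2 CPM in control mice, against 10.8, 13.2 and 17.7 CPM in Ogt-KD mice. The groups overlapped at Ogt-KD replicate 1. The log2 fold change of Bcl2a1b was 0.50 (SE 0.25, edgeR adjusted p = 0.694), 0.33 with control replicate 2 left out and 0.29 with Ogt-KD replicate 3 left out. Bcl2a1d, the most abundant copy, had 0.45 (SE 0.14, edgeR adjusted p = 0.556) and Bcl2a1a 0.52 (SE 0.33). Bcl2a1a exceeded every control in Ogt-KD replicate 2 alone, and without that library its value was 0.16. With the counts of the 3 copies summed, a step chosen after seeing the data, control libraries held 43.1, 33.2 and 39.9 CPM and Ogt-KD libraries 44.7, 59.0 and 58.0 CPM. All 3 sums in Ogt-KD libraries exceeded those in control libraries, in replicate 1 by a narrow margin (log2 fold change 0.48, SE 0.15, edgeR adjusted p = 0.566). Neutrophils also make A1. The 10 neutrophil markers summed to 119 to 231 CPM in control and 133 to 312 CPM in Ogt-KD libraries, with 9 of 10 above 0 in log2 fold change and none at 0 counts over the series. Their highest sum was in Ogt-KD replicate 2, and their part in the Bcl2a1 values was not tested.

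Neither effector passed the test. Bax (chr7:45461697-45466898, minus strand) stood at 109, 101 and 111 CPM in control mice, against 89.6, 89.1 and 123 CPM in Ogt-KD mice. Ogt-KD replicates 1 and 2 lay below every control and Ogt-KD replicate 3 above every control. The log2 fold change of Bax was -0.09 (SE 0.14, 95% interval -0.41 to 0.24, edgeR adjusted p = 0.969), and it was -0.26 without Ogt-KD replicate 3. Bak1 (chr17:27019810-27029009, minus strand) was the steadiest member, with 58.9, 64.0 and 60.2 CPM in control and 67.5, 69.4 and 57.9 CPM in Ogt-KD mice. Its highest library held 1.20 times the level of its lowest, and the log2 fold change was 0.09 (SE 0.10, 95% interval -0.14 to 0.32, edgeR adjusted p = 0.941). Exons of Bak1 share 25.5% of their bases with Ggnbp1 on the other strand, and those of Bax 12.2% with Gm45808 on the same strand.

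Of the BH3-only genes, Bbc3 and Pmaip1 had the widest spread between libraries of all 10 members. Within groups the SD of log2 CPM was 0.83 for Bbc3 and 0.73 for Pmaip1, above 98.6% and 98.0% of the 8782 genes whose mean CPM lies in the range of the members, which have a median of 0.15. Bcl2l11 had 0.32 and Bid 0.15. Among the survival genes and effectors the within-group SD was largest for Bcl2, at 0.38, and smallest for Bak1 and Bcl2l1, at 0.11 each.

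Bbc3 (chr7:16308393-16318205, plus strand), which encodes PUMA, a potent killer induced by p53, FOXO factors and glucocorticoids, ran from 26.3 to 131 CPM. Control mice held 67.5, 85.6 and 131 CPM and Ogt-KD mice 38.9, 26.3 and 111 CPM. Ogt-KD replicates 1 and 2 lay below all controls, while replicate 3 of each group held the 2 highest values. The log2 fold change was -0.68 (SE 0.53, 95% interval -1.93 to 0.57, edgeR adjusted p = 0.869). Leaving out Ogt-KD replicate 3 gave -1.54, and leaving out both replicate 3 libraries -1.23. Dropping control replicate 3 gave -0.39, Ogt-KD replicate 1 -0.45 and Ogt-KD replicate 2 -0.33, with no call in any of these fits.

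Bcl2l11 (chr2:128126038-128162547, plus strand), which encodes BIM, ranked the 6 libraries exactly as Bbc3 did, in a narrower range. The scores on principal component 1 had nearly that order, with control replicates 1 and 2 exchanged. How many of all genes share the order was not computed, so it is no result about this pair. Bcl2l11 stood at 79.3, 102 and 114 CPM in control mice, against 72.7, 68.0 and 109 CPM in Ogt-KD mice. As for Bbc3, Ogt-KD replicates 1 and 2 lay below all controls and replicate 3 of each group was highest. Its log2 fold change was -0.23 (SE 0.21, edgeR adjusted p = 0.912), and it ran from -0.48 without Ogt-KD replicate 3 to -0.11 without Ogt-KD replicate 2.

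Bbc3 and Bcl2l11 are both known targets of FOXO transcription factors. Of the members' windows searched, those shown here were picked because they hold a FOXO site. Other windows of these 2 genes do not hold it and are not shown. The windows are the 250 bases before a RefSeq start (GRCm38.p6, plus strand), with a FOXO site, GTAAACA on either strand, in capitals.
Bcl2l11, chr2:128125788-128126037: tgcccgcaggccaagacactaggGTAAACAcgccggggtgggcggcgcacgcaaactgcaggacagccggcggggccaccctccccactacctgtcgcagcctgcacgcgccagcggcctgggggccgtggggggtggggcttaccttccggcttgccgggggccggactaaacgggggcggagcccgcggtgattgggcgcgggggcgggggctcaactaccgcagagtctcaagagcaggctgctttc
Bbc3, chr7:16310011-16310260: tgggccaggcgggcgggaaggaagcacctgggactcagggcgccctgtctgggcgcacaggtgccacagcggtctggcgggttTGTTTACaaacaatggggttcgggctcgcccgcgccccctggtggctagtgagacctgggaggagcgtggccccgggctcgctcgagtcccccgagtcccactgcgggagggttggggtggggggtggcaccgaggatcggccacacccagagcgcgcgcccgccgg
The Bcl2l11 window lies before the first exon and the site begins 227 bases before the start. The Bbc3 window lies before a later start, overlaps no exon and is within an intron of 2 of the 4 GENCODE transcripts of the gene, and its site lies on the minus strand, 167 bases before the start. In every RefSeq window, motifs were searched in the 250 bases before the start alone, and not in the part that reaches past it. Of 14 windows of the 9 members searched, these 2 hold GTAAACA, as do 3.17% of 32851 windows of all genes. In all, 14 motifs were searched on both strands. The other searches were AAACA (contained in the first, 7 of 14 windows, 46.4% of all), TGACG (3, 17.8%), CACGTG (2, 6.02%), GGGCGG (10, 32.7%), the NF-kB site (2, 17.6%), CATG (4, 53.9%), CCAAT (3, 33.8%), TGTNCT (2, 44.7%), CCGGAAG (2, 6.91%) and TGANTCA (1, 6.75%). TGACGTCA, which contains TGACG, and TATAAA and TTCNNNGAA were in 0 of the 14 windows, against 1.55%, 12.4% and 7.02% of all. A match describes letters and not a bound site.

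Pmaip1 (chr18:66458604-66465550, plus strand), which encodes NOXA, a BH3-only protein that binds chiefly MCL-1 and A1, ran in nearly the reverse order of Bbc3. Control mice held 42.6, 60.8 and 28.7 CPM and Ogt-KD mice 73.1, 132 and 38.8 CPM. Ogt-KD replicates 1 and 2 exceeded every control, and Ogt-KD replicate 3 lay below 2 of the 3. The log2 fold change was 0.88 (SE 0.45, 95% interval -0.19 to 1.95, edgeR adjusted p = 0.716). Leaving out Ogt-KD replicate 2 gave 0.34, and leaving out Ogt-KD replicate 3 gave 1.21. At each replicate number the Ogt-KD library held more Pmaip1 and less Bbc3 than the control library of that number, though the labels state no pairing. For Ogt-KD replicate 3 this held against control replicate 3 alone, and not against the other controls. With the replicate number as a block, 0 members passed in edgeR, against 0.292% of all genes. Pmaip1 had the smallest adjusted p of the members in that fit, 0.0703, and 4 of 10 had an unadjusted p under 0.05, against 13.2% of all genes.

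Markers of other spleen cells moved with these 2 genes across libraries. Itgax and Zbtb46, which mark dendritic cells, ranked the 6 libraries exactly as Pmaip1 did. That order is the reverse of the scores on principal component 1, which held 44.8% of variance. The share of all genes with this order, or with that of Bbc3, was not computed. Itgax stood at 37.9, 44.3 and 19.0 CPM in control mice, against 85.5, 126 and 34.1 CPM in Ogt-KD mice. In the edgeR fit blocked on replicate number, calls were made for Itgax (log2 fold change 1.19, adjusted p = 0.0363) and Zbtb46 (1.36, adjusted p = 0.0481), neither of which passed without the block (0.624 and 0.651). The 6 dendritic cell markers all lay above 0 in log2 fold change (median 1.25) and summed to 27.9 to 76.8 CPM in control and 65.6 to 197 CPM in Ogt-KD libraries. Csf1r of macrophages nearly followed Bbc3, with Ogt-KD replicates 1 and 2 exchanged, at 290.3, 318 and 655 CPM in control and 124, 143 and 503 CPM in Ogt-KD mice. The 4 macrophage markers, 3 of them below 0 (median -0.39), summed to 566 to 1048 CPM in control and 404 to 858 CPM in Ogt-KD libraries. None of these 10 markers was at 0 counts over the series. The split of this list in 2 and the genes named from it were chosen after their values were seen. Tsc22d3, a glucocorticoid-induced gene chosen likewise, stood at 425, 552 and 652 CPM in control and 263, 219.6 and 524 CPM in Ogt-KD mice, and which cells it came from cannot be told in bulk RNA. The part of other cells or of any such signal in the Bbc3 and Pmaip1 values was not tested.

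**Figure D4:**
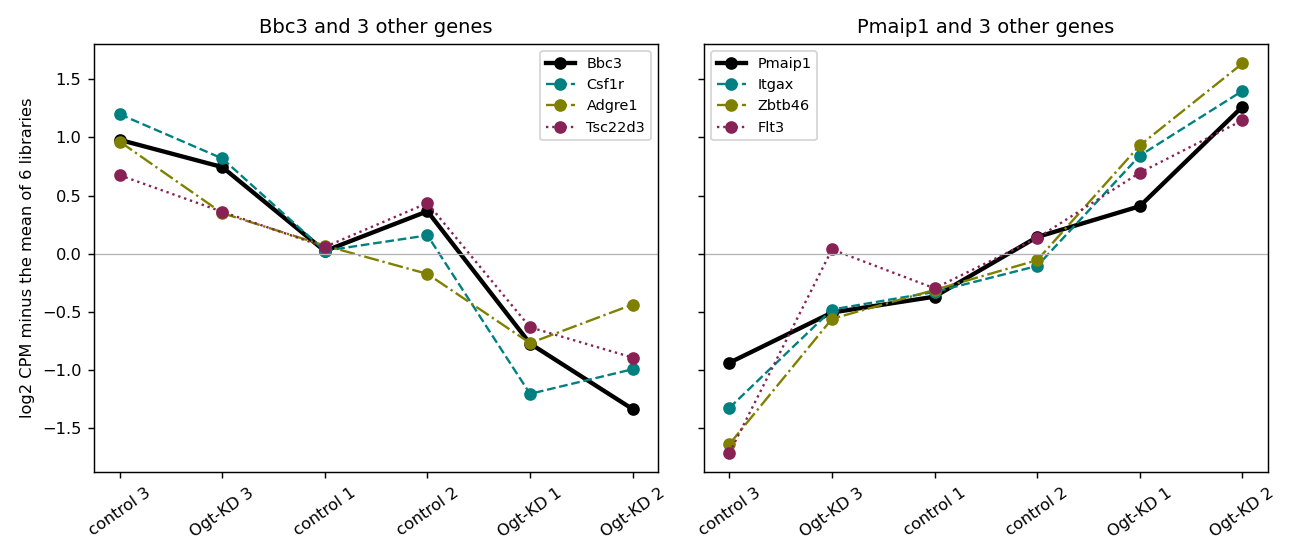
Log2 CPM minus its mean over the 6 libraries for Bbc3 with Csf1r, Adgre1 and Tsc22d3 (left) and for Pmaip1 with Itgax, Zbtb46 and Flt3 (right). Libraries are set from the lowest to the highest Pmaip1, from 28.7 CPM in control replicate 3 to 132 CPM in Ogt-KD replicate 2, and lines only join the points of a gene.

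Bid (chr6:120891930-120916853, minus strand), whose protein carries the death receptor signal to mitochondria once caspase-8 has cut it, had a difference near 0. It stood at 21.4, 24.1 and 22.0 CPM in control and 19.9, 22.9 and 25.8 CPM in Ogt-KD mice. The groups overlapped fully, and the log2 fold change was 0.03 (SE 0.13, 95% interval -0.28 to 0.33, edgeR adjusted p = 0.988). Its exons share 17.7% of their bases with Bcl2l13 on the other strand.

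The balance of Bcl2 over Bcl2l11 was tighter within each group than either gene alone. The ratio of their FPKM within a library was 1.89, 2.14 and 1.90 in control mice and 3.06, 2.80 and 3.14 in Ogt-KD mice. The groups did not overlap, although each gene's own values did, and replicate 3 of each group sat with its own group. On the log2 scale the means were 0.98 ± 0.10 and 1.58 ± 0.09 (SD, n = 3 each), a difference of 0.60, and it ran from 0.57 to 0.66 when any 1 library was left out. The two-sided exact permutation p was 0.1, the smallest that 3 against 3 allows, and 0.3 when adjusted over the 3 ratios tested. Of the other 16074 genes tested, 7.02% had a ratio to Bcl2l11 that did not overlap between the groups. All 45 pairs of members were also examined for overlap, without a test, and 11 (24.4%) did not overlap. The share over pairs of all genes was not computed, and the pairs reuse the same genes. The 24.4% is therefore no result about the family. Among the 11 pairs were Bcl2 to Bbc3, with a log2 difference of 1.26, and 4 ratios of Bcl2l1, to Mcl1 (0.62), Bax (0.54), Bid (0.42) and Bak1 (0.35).

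**Figure D5:**
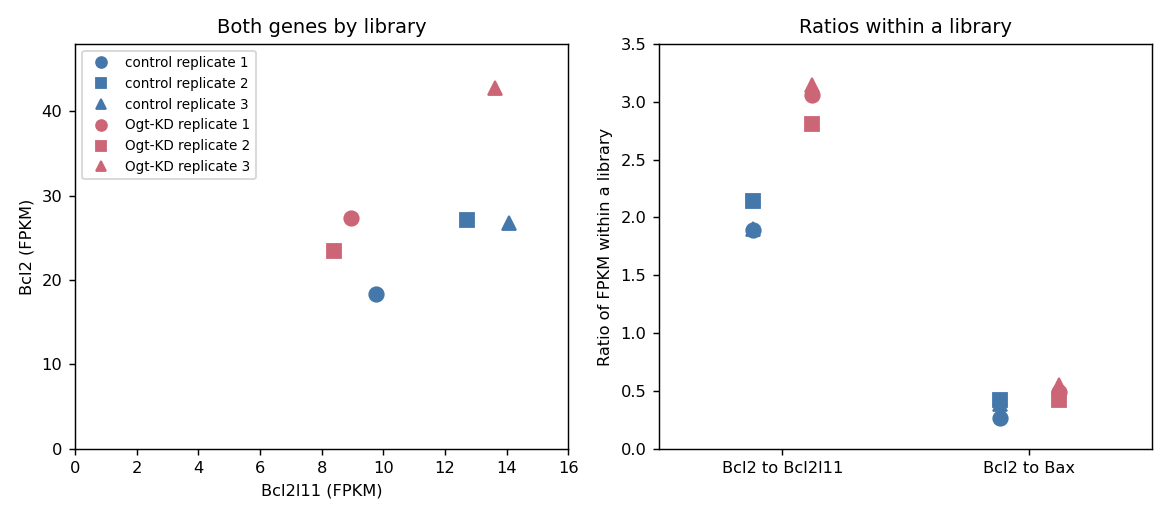
Bcl2 against Bcl2l11 in FPKM for each library (left), and the ratios of Bcl2 to Bcl2l11 and of Bcl2 to Bax within each library (right), on linear axes. The Bcl2 to Bcl2l11 ratio lies from 1.89 to 2.14 in control and from 2.80 to 3.14 in Ogt-KD libraries, and the Bcl2 to Bax ratio overlaps between the groups.

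The other 2 ratios tested overlapped. Bcl2 to Bax was 0.27, 0.42 and 0.38 in control and 0.49, 0.42 and 0.55 in Ogt-KD mice (log2 difference 0.45, exact permutation p = 0.2, adjusted 0.3). Mcl1 to Pmaip1, the ratio of a survival gene to that of its antagonist, was 13.1, 10.2 and 18.6 in control and 6.36, 3.67 and 14.6 in Ogt-KD mice (log2 difference -0.95, exact permutation p = 0.3, adjusted 0.3). Ogt-KD replicate 3 lay among the controls for that ratio.

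Other members of the family did not pass either. Of 15 listed, 12 were tested, and 7 lay above and 5 below 0 (median log2 fold change 0.13). Calls numbered 0 in edgeR, DESeq2 and limma-voom. At an unadjusted edgeR p under 0.05 was 1, Bcl2a1d, against 7.52% of all genes tested. That share is the one to set beside the lists below as well. Bcl2l2, which encodes the survival protein BCL-w, had 0.28 (SE 0.17), and its groups did not overlap. Bmf, a BH3-only gene, had -0.39 (SE 0.38). Bnip3l, a mitophagy gene, had -0.11, and Bad, whose BH3 protein is held inactive by growth factor signals, -0.01. Bcl2l10 was at 0 in every library, where a count of 0 allows up to 3.

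Downstream of the mitochondria, the 20 genes of the apoptosome, caspases and inhibitors of apoptosis gave a median of 0.02 in log2 fold change, with 11 above 0. Calls numbered 0 in edgeR, DESeq2 and limma-voom. Against 7.52% of all genes tested, 3 were at an unadjusted edgeR p under 0.05. Among these were Aifm1 (0.24, SE 0.09), a mitochondrial flavoprotein gene, and Birc5 (0.75, SE 0.31), which encodes survivin and is made by dividing cells. Birc5 stood at 13.5, 24.2 and 21.7 CPM in control and 42.2, 37.3 and 20.8 CPM in Ogt-KD mice, so it was high in Ogt-KD replicates 1 and 2. Leaving out both replicate 3 libraries gave 1.07 for Birc5, Ogt-KD replicate 1 alone 0.55 and Ogt-KD replicate 2 alone 0.66. The cell cycle genes were highest in the same 2 libraries, summed to 2033 and 2017 CPM there and 1556 CPM in Ogt-KD replicate 3. Of 20 tested (median 0.80), 14 were at an unadjusted edgeR p under 0.05, against 7.52% of all genes tested, and 0 were called in edgeR. DESeq2 called 4 of them, and their part in the Birc5 values was not tested.

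The death receptor pathway, which meets the family at BID, had a median of 0.07 over 15 genes, 10 above 0, and edgeR, DESeq2 and limma-voom called 0. Tnfrsf1b, the TNF receptor of activated and regulatory T cells, was the 1 gene at an unadjusted edgeR p under 0.05. It stood at 120.2, 162 and 119 CPM in control and 192, 225 and 165 CPM in Ogt-KD mice (log2 fold change 0.54, SE 0.17, edgeR adjusted p = 0.560). Its groups did not overlap, by a narrow margin. Tnfrsf1a, the death domain receptor for TNF, had -0.21 (SE 0.11) and Mlkl, the effector of necroptosis, 0.25 (SE 0.24).

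The list of p53 and its targets, which include Bbc3 and Pmaip1 by textbook accounts though neither is counted in it, had a median of 0.02 over 17 tested genes, 12 above 0. Called by edgeR, DESeq2 and limma-voom were 0, and 4 had an unadjusted edgeR p under 0.05, all higher in Ogt-KD libraries. Over all genes tested, 5.04% were under that p and higher, and 2.48% under it and lower. Phlda3 had 0.96 (SE 0.29) at a mean of 1.63 CPM in control, Sesn2 0.39 (SE 0.15), Gtse1, a cell cycle gene, 0.92 (SE 0.35; 1.22 without Ogt-KD replicate 3) and Cdkn1a, which encodes the cell cycle inhibitor p21, 0.87 (SE 0.35). Cdkn1a was named to complete the count and Trp53 as the head of the pathway, both after their values were seen. Trp53 itself had a log2 fold change near 0 (95% interval -0.38 to 0.38).

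Genes of cytokine survival signals and FOXO factors had a median of -0.03 over 19 tested, 7 above and 12 below 0, and edgeR and limma-voom called 0, with 2 at an unadjusted edgeR p under 0.05. Both were chains of the interleukin 2 receptor, which drives Bcl2 and Mcl1 through STAT5. Il2rb stood at 287, 362 and 322 CPM in control and 429, 464 and 499.6 CPM in Ogt-KD mice (log2 fold change 0.52, SE 0.12, edgeR adjusted p = 0.512, DESeq2 adjusted p = 0.0370). Il2ra had 0.55 (SE 0.18, edgeR adjusted p = 0.583), and neither gene's groups overlapped. The kinase gene Jak1 had -0.23 (SE 0.11) and also did not overlap, in the other direction.

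Among 14 genes that act on the turnover or placement of MCL-1 and BIM, the median was -0.06, with 4 above and 10 below 0, and edgeR, DESeq2 and limma-voom called 0. Dynll1, whose dynein light chain binds BIM, was the 1 gene at an unadjusted edgeR p under 0.05. It stood at 129.7, 141 and 117 CPM in control and 99.0, 106 and 76.7 CPM in Ogt-KD mice, with no overlap (log2 fold change -0.46, SE 0.14, edgeR adjusted p = 0.556). Mapk3, the gene of ERK1, a kinase that marks BIM for degradation, had 0.18 (SE 0.08), and Usp9x, of a deubiquitinase that stabilises MCL-1, -0.16 (SE 0.09).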

How the data were processed

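Counts per gene were read from 1 deposited table of 54532 genes. Per the submitters' processing notes, reads were handled with Bowtie2 2.0.6 and TopHat2 2.0.9, with build mm9 named. The gene coordinates in the deposited table are those of GRCm38. Neither the counting tool nor its strand setting is stated in labels or headers (not given in the sources used here). Deposited FPKM was the count divided by gene length and by 1 factor for each library, as checked on the values. Of the authors' log2 fold change, p-value and adjusted p, the last is quoted for a pair of genes, and the authors' mean normalised signal was not used. The deposited gene length in bases, an other unit, entered the FPKM check and TPM only.

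The test was the edgeR 4.0.16 quasi-likelihood F test in R 4.3.3, with TMM scaling, filterByExpr (16075 genes kept), robust dispersion and Benjamini-Hochberg adjustment over all genes tested, threshold 0.05. CPM are TMM-scaled. DESeq2 1.42.0, limma-voom (limma 3.58.1), other filters, other scaling and left-out libraries were tried. The edgeR pipeline was run on simulated counts with known fold changes, as a check of the code. Those libraries were drawn as independent, without the spread along principal component 1. The run therefore says nothing on how that spread affects the calls. Total counts ran from 18127031 to 25683453 per library, and the series names 3 mice a group without saying outright that each library is 1 mouse, so p-values measure the spread between these libraries.

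Deviations from the group means correlated across genes at 0.109, 0.346 and 0.523 between libraries of the same number, all above 0.1, so a replicate block was also fitted. Of the pairs with different numbers, control 2 with Ogt-KD 1 had 0.267 and control 1 with Ogt-KD 2 had 0.0736, and the other 4 were below 0. The labels number the replicates but state no pairing.

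Named genes were the 10 members, the 3 genes with the smallest p of each pathway list, any tested other BCL-2 family gene, Ogt, and marker genes. A gene that this rule names is not reported here. The members and lists were chosen with earlier results of these data known. Promoters are from RefSeq (GRCm38.p6), transcripts from GENCODE M21. Sequence from chromosome 18 is not shown.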

Additional observations from a re-analysis of the deposited data

How the results depend on the processing

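Across the 16 alternatives to the fit described, 9 members kept their direction in every one, and Bid, near 0 throughout, did not. With 1 library left out at a time it ran from -0.072 (Ogt-KD replicate 3) to 0.12 (Ogt-KD replicate 1), and it was also below 0 when control replicate 1 or 3 was dropped. With both replicate 3 libraries dropped it was -0.088, with or without the replicate block. Ogt ran from -0.17 to 0.077 with 1 library left out, above 0 when this was Ogt-KD replicate 3. It was 0.037 with both replicate 3 libraries dropped, and 0.035 when that fit held the replicate block. Genes called over the whole table numbered 1 in edgeR, 4 without a filter, 126 in DESeq2, 47 with the replicate block and 35 without both replicate 3 libraries. Leaving out 1 library gave 1 to 2, and leaving out 1 pair within the replicate block gave 2 to 295. The members called stayed at 0 except for 1, Pmaip1, with the block without replicate 3 (log2 fold change 0.95, edgeR adjusted p = 0.0260). The block with all libraries changed no call of a member or of a pathway gene named, and it called the dendritic cell markers Itgax and Zbtb46. Without replicate 1 it called, among others, Bcl2a1d (adjusted p = 0.0420), Tnfrsf1b (0.0395), Il2ra (0.0255) and Dynll1 (0.0299) in edgeR, and without replicate 3 again Tnfrsf1b (0.0431). With all libraries in the block the edgeR adjusted p values of Bcl2a1d, Tnfrsf1b, Il2ra and Dynll1 were 0.221, 0.0559, 0.0568 and 0.0790. Of the cell cycle genes, Nusap1 was called without replicate 1 (edgeR adjusted p = 0.0454). Kif11 (0.0260), Cenpf (0.0415) and Nusap1 (0.0396) were called without replicate 3. With all libraries in the block Kif11, Cenpf and Nusap1 had 0.139, 0.109 and 0.0863. Members' unadjusted p values under 0.05 numbered 6 without Ogt-KD replicate 3 (Bcl2l1, Mcl1, Bcl2l11, Bax, Bbc3 and Pmaip1) against 1 with all libraries. In that fit 18.4% of all genes were under 0.05, against 7.52% with all libraries. With 3 libraries a group, the spread of Bbc3 and Pmaip1 limits what could be called: their 95% intervals run from -1.93 to 0.57 and from -0.19 to 1.95. TPM in place of FPKM left the order of levels as it was.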
